A study of Mus musculus with 6 samples.

Results

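Regions gained from late mitosis onward are stretches of DNA listed as accessible in late mitosis and early G1 but not in mitosis of mouse embryonic stem cells. Peaks of 6 deposited ATAC-seq lists were merged where they overlapped by at least 1 bp, on chromosomes 1 to 19. A region was counted as gained when it had no peak in either mito list, a peak in at least 1 LM list and a peak in both eG1-1 lists. The rule kept 1620 of 64018 regions, which is 2.53% of them. The regions were chosen by the presence or absence of a peak in all 6 lists, so their peak scores are given as a description. No test of the same contrast can be made on them.

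All 6 samples were CGR8 mouse embryonic stem cells, an established line, carrying the Cdt1-MD modification that the series' design text names. The cells were untreated. They grew on gelatin in Neurobasal and DMEM/F-12 medium with N-2 and B-27 supplements, the GSK3 inhibitor CHIR99021, the MEK inhibitor PD184352 and leukemia inhibitory factor, so all 3 groups share both inhibitors and the one line. The groups are named mito, LM and eG1-1 and were read, from the series title on mitotic exit, as mitosis, late mitosis and early G1, with 2 lists each. The labels do not spell these names out, both LM lists carry the word Telo in their peak names, and the stated numbers of cells disagree between titles and protocol. Nothing says that replicates came from separate cultures.

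In mitosis chromosomes condense, transcription largely stops and many sequence-specific factors leave the DNA. Promoters, above all those rich in CpG dinucleotides, are known to keep much of their accessibility through division, whereas many enhancers lose more of it. ATAC-seq reads accessibility from where the Tn5 transposase inserts adapters. During telophase and early G1 the nuclear envelope reforms, chromatin decondenses and transcription resumes, so the time at which a site becomes detectable again is one measure of how a cell rebuilds its regulatory state.

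The promoters printed here show the DNA at gene starts that gained regions overlap. They belong to the 6 protein-coding genes with a gained region over a RefSeq promoter window, peaks in both LM lists and the strongest early G1 peaks. Each line holds the 250 bases before an annotated start, 5′ to 3′ on the gene's strand, from RefSeq on GRCm38.p6 (mm10). Capitals mark matches to the short motifs spelled out further on.
Lin37, chr7:30559647-30559896, minus strand: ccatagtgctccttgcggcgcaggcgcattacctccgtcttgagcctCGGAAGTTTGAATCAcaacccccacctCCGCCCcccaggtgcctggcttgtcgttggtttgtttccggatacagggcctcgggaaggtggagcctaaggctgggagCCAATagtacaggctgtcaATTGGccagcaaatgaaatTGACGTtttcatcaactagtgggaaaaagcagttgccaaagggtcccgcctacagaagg
Zfand6, chr7:84679397-84679646, minus strand: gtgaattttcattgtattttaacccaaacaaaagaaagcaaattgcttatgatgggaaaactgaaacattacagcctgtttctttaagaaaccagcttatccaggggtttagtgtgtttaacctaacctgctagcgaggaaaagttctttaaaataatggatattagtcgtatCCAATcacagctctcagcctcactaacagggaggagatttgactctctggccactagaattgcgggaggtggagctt
Fgd4, chr16:16560220-16560469, minus strand: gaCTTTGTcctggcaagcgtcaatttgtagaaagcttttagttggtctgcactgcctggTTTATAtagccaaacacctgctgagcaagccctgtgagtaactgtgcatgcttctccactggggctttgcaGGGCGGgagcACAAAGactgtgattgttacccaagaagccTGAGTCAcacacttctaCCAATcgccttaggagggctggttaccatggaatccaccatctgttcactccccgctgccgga
Gm46425, chr13:65950339-65950588, plus strand: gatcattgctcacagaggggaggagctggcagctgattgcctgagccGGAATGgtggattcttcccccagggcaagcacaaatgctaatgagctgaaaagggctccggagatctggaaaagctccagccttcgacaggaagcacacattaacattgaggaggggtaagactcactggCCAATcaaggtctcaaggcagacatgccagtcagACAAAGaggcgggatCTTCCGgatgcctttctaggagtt
Crk, chr11:75679009-75679258, plus strand: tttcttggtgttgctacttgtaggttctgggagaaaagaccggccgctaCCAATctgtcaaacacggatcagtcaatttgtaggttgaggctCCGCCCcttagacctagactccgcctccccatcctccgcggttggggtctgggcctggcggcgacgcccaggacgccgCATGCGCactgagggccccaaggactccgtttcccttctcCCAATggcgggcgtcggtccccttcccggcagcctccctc
Chaf1a, chr17:56040166-56040415, plus strand: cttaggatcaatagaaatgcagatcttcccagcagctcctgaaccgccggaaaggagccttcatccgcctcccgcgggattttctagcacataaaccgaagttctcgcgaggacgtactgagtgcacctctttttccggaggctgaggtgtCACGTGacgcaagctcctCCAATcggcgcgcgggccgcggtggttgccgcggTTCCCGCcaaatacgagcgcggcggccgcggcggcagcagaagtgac

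The 6 promoters differ widely in base composition. The Zfand6 sequence held 3 CpG dinucleotides and 39.6% G and C, and the Fgd4 and Gm46425 sequences held 5 CpG each. Lin37 held 11 CpG, Crk 18 and Chaf1a 28, the last with 61.2% G and C. All 6 of the 6 sequences held CCAAT, the core letters of the NFY box, or its reverse complement ATTGG. That was seen after the sequences were read, and CCAAT was also common among promoters at large, as described with the motif shares. In Lin37, which encodes a subunit of the MuvB complex that represses and activates cell cycle genes, the 2 matches started 97 and 78 bases before the start of the gene. The ETS letters CGGAAG, the cell cycle letters TTTGAA and the AP-1 letters TGAATCA stood together in the same promoter, starting 203, 197 and 195 bases before the start, and the second and the third share letters. The Chaf1a promoter, which drives the large subunit of the histone chaperone CAF-1, held the E-box CACGTG, the NFY letters CCAAT and the E2F letters TTCCCGC, starting 99, 81 and 47 bases before the start. A match describes the letters only and does not show that a factor binds there.

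The series itself can be described briefly. On chromosomes 1 to 19 the number of peaks was 24101 and 29779 in the mito lists, 23377 and 20289 in those of LM and 31443 and 47411 in those of eG1-1, and every list had a lowest score of 13. Read depth is unknown, so absence from a list shows only that no peak passed the calling there. Of 6 embryonic stem cell markers (Pou5f1, Nanog, Sox2, Esrrb, Klf4, Zfp42), the mito lists had a gene-end peak at 5 and 3, those of LM at 3 and 2, and those of eG1-1 at 1 and 4. Zfp42 had one in all 6 lists and Esrrb in none. Of 23 genes that mark fibroblasts and other cell types, the mito lists gave a gene-end peak to 3 and 6, those of LM to 7 and 5, and those of eG1-1 to 8 and 8. Of 22 trophectoderm and endoderm genes, the 2 mito lists gave 6 and 9, those of LM 9 and 4, and those of eG1-1 7 and 10. Over all 20665 protein-coding genes the mito lists gave 9947 and 10749, those of LM 10113 and 7646, and those of eG1-1 8962 and 11213. The peak names place the 3 lists of replicate 1 in one sequencing run and those of replicate 2 in another.

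Most gained regions were seen in only 1 of the LM lists. LM replicate 1 alone held 566 of them (34.9%), LM replicate 2 alone held 756 (46.7%), and both held 298, or 18.4% (Wilson 95% interval 16.6% to 20.4%, which covers counting error only, as all such intervals here). The 298 regions with peaks in both LM lists had eG1-1 score medians of 53.5 and 82. Those found in LM replicate 1 alone had eG1-1 medians of 42 and 60, and those found in LM replicate 2 alone had 46 and 67. Regions in both LM lists were also wider, with a median of 608.5 bp against 541 bp and 521.5 bp in the other two sets. Of the 5183 regions with peaks in both eG1-1 lists and none in mito, 1620 had an LM peak, or 31.3% (30.0% to 32.5%). The other 3563 are called early-G1-only regions here. With each list cut to the length of the shortest, 1117 regions were gained and 989 were early-G1-only. In the opposite direction, 1183 regions had peaks in both mito lists and none in eG1-1. Of those, 635 had an LM peak, or 53.7% (50.8% to 56.5%).

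**Figure D1:**
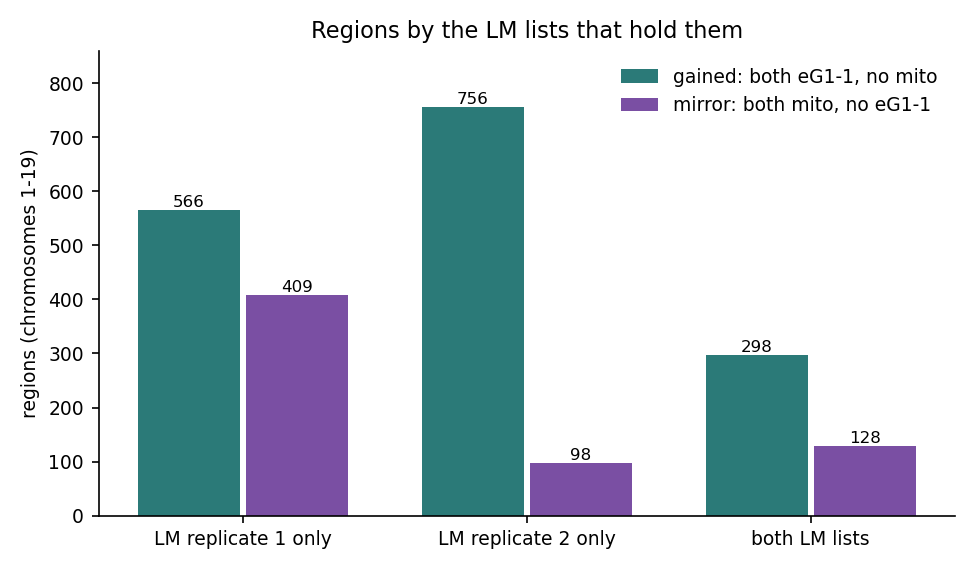
Number of gained regions and of mirror regions (peaks in both mito lists and at least 1 LM list, none in eG1-1) by the LM lists that held them. In the gained set 298 regions were in both LM lists, against 566 in LM replicate 1 alone and 756 in LM replicate 2 alone, while the mirror set had 128, 409 and 98.

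The mirror of the rule, with peaks in both mito lists, in at least 1 LM list and in neither eG1-1 list, found 635 regions. Of the gained regions 864 were in LM replicate 1 and 1054 in LM replicate 2, whereas mirror regions leaned to LM replicate 1, with 409 in it alone and 98 in LM replicate 2 alone. That gained regions outnumbered mirror regions depended on the lists. With each list cut to the length of the shortest there were 1117 gained and 1748 mirror regions. The 3 lists of replicate 1 alone gave 2707 gained and 3086 mirror regions, and the 3 lists of replicate 2 alone gave 2782 and 765. Without eG1-1 replicate 2, the longest list, there were 2104 gained and 2834 mirror regions. Without mito replicate 2 the gained regions numbered 3762, and without eG1-1 replicate 1 they numbered 3390. The size of the gained set therefore moved with single lists, and the values below describe the 1620 regions of the full rule. With 2 lists against 2, the smallest exact two-sided p is 0.333, so no test between groups was made.

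Many regions missed the rule by a single list. A further 2974 regions met every condition but for a peak in exactly 1 mito list. Of those, 832 had it in mito replicate 1, with a median score of 40, and 2142 in mito replicate 2, with a median score of 51. Another 2281 regions lacked a peak in 1 eG1-1 list, of which 501 had it in eG1-1 replicate 1 (median score 34) and 1780 in eG1-1 replicate 2 (median score 49). Members themselves had eG1-1 median scores of 47 and 67.5.

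By score, gained regions were low to middling peaks. The score is the authors' value for each peak, and it is read here only within its own list, as the percentile of all peaks of that list. In LM replicate 1 the 864 members had a lowest score of 13, a median of 35 and a highest of 143, and the median stood at percentile 23.9. In LM replicate 2 the 1054 members had scores of 13, 37 and 2980 on the same measures, with the median at percentile 33.6. In eG1-1 replicate 1 the lowest was 13, the median 47 and the highest 1446, with the median at percentile 47.4. In eG1-1 replicate 2 they were 15, 67.5 and 845, with the median at percentile 59.1. The top 10% of a list held 1 of the members' peaks in LM replicate 1, 13 in LM replicate 2, and 46 and 79 in the eG1-1 lists. Early-G1-only regions had eG1-1 medians at percentiles 33.5 and 40.8, and regions of all 6 lists at 78.7 and 86.4.

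**Figure D2:**
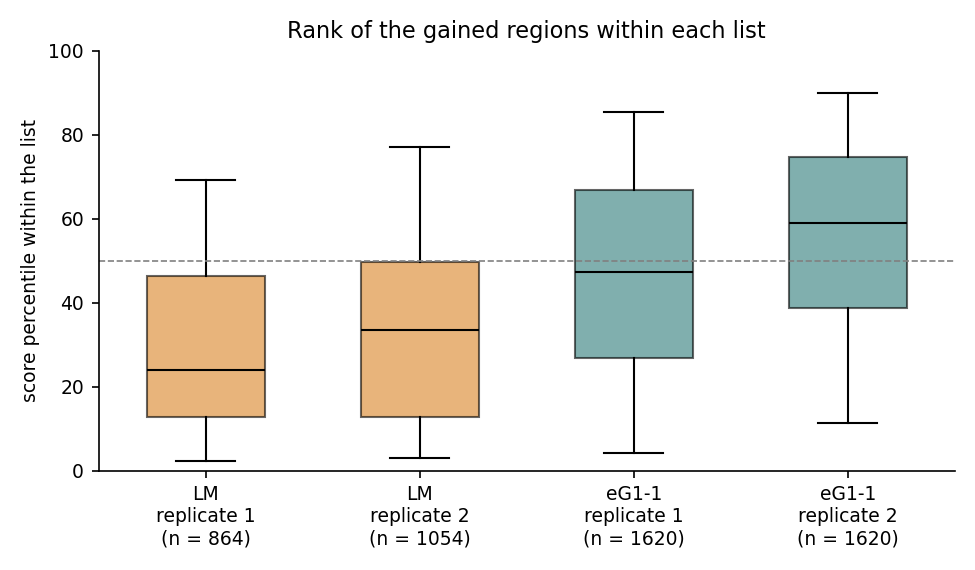
Score percentile of the gained regions within each LM and eG1-1 list, with the line at the median, the box from the lower to the upper quartile, whiskers from percentile 5 to percentile 95 of the regions and a dashed line at percentile 50. The medians were 23.9 and 33.6 in the LM lists and 47.4 and 59.1 in the eG1-1 lists.

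Among the gained regions, 168 lay at a gene end, that is, centred within 1 kb of the start or the last base of a protein-coding gene. The strongest of them by early G1 peak was at Clgn, which encodes calmegin, a chaperone of the endoplasmic reticulum in male germ cells. The Clgn region, chr8:83429083-83429540, lay outside the gene, centred 759 bp from the nearest gene end. It had no peak in either mito list or in LM replicate 1, a score of 71 in LM replicate 2, and 191 and 286 in eG1-1. Both ends of a gene count as gene ends, so a gene-end region need not lie at a promoter. The Lin37 region, chr7:30559434-30560042, was held by both LM lists, with scores of 75 and 82, and scored 180 and 209 in eG1-1. It spans the Lin37 promoter printed above, and its centre lay 16 bp from the nearest gene end. The Stimate region, chr14:30825260-30825617, scored 72 in LM replicate 1, had no LM replicate 2 peak, and scored 124 and 153 in eG1-1. Stimate encodes a regulator of store-operated calcium entry.

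Mad2l1bp, Chaf1a and Crk were also among the 15 strongest gene-end regions. Mad2l1bp encodes the protein known as p31comet, which helps to silence the spindle checkpoint. Its region, chr17:46152984-46153708, scored 108 in LM replicate 2, with no LM replicate 1 peak, and 94 and 155 in eG1-1. Chaf1a, whose product loads histones H3 and H4 onto newly copied DNA, had the region chr17:56039927-56040413, with scores of 84 and 123 in LM and 87 and 169 in eG1-1. Crk encodes an adaptor that links tyrosine kinases to small GTPases. The Crk region, chr11:75678862-75679293, scored 104 and 120 in LM and 106 and 147 in eG1-1. Lin37, Chaf1a, Crk and Gm46425 were the members of these 15 that both LM lists held.

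The other gene-end regions came from 1 LM list each, except Gm46425. Tigd3, a gene derived from a transposase, had the region chr19:5894052-5894491, with 121 in LM replicate 2 and 147 and 138 in eG1-1. The region of 0610010F05Rik, chr11:23633612-23634044, scored 92 in LM replicate 1 and 136 and 143 in eG1-1. The Fam13a region, chr6:59024301-59024856, scored 19 in LM replicate 2 and 101 and 240 in eG1-1. The region at Ldhal6b, a lactate dehydrogenase gene of the testis, chr17:5418771-5419384, scored 63 in LM replicate 1 and 89 and 227 in eG1-1. Cabyr encodes a calcium-binding protein of the sperm tail, and its region scored 35 in LM replicate 1 and 120 and 130 in eG1-1. The Spata4 region, chr8:54600622-54601212, scored 63 in LM replicate 2 and 122 and 119 in eG1-1, and Spata4 is known for expression in testis. Prss48, a serine protease gene, had a region with 69 in LM replicate 2 and 156 and 129 in eG1-1. Ang2, of the angiogenin family of ribonucleases, had one with 64 in LM replicate 2 and 95 and 111 in eG1-1. Each of these regions rests on a single LM list, and scores of different lists are not on one scale.

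**Figure D3:**
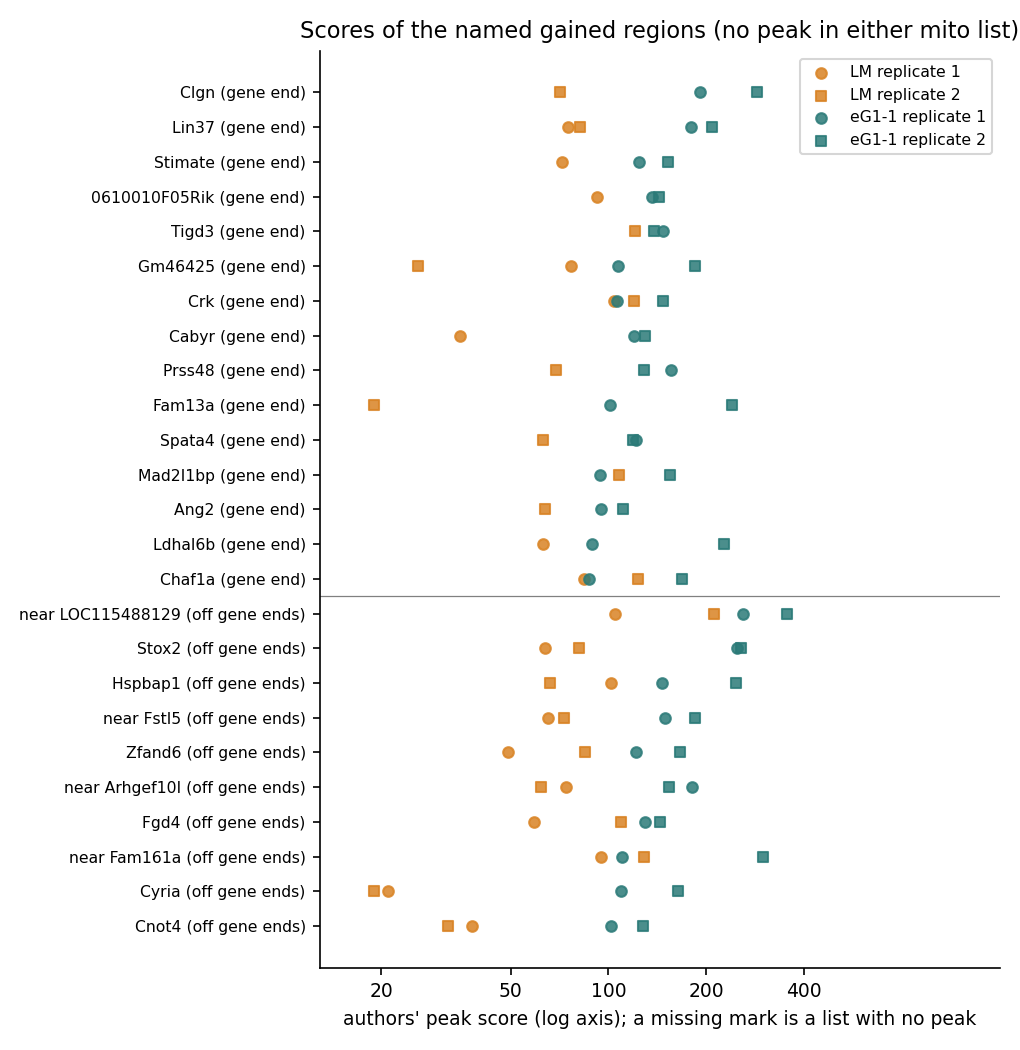
Authors' peak scores (log axis) of the 15 strongest gained regions at gene ends and the 10 strongest off gene ends that both LM lists held, in the LM and the eG1-1 lists; none has a mito peak, and a missing mark is a list without a peak. Lin37 shows 75 and 82 in LM and 180 and 209 in eG1-1, while Crk shows 104 and 120 in LM and 106 and 147 in eG1-1; scores of different lists do not share a scale.

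The strongest gained regions away from gene ends that both LM lists held were spread over 10 loci. The highest was an intergenic region, chr13:66311911-66312451, 23480 bp from the end of LOC115488129, with scores of 105 and 212 in LM and 260 and 355 in eG1-1. A region inside Stox2, which encodes a winged-helix protein, chr8:47334117-47334626, scored 64 and 81 in LM and 249 and 256 in eG1-1. A region inside Hspbap1, chr16:35772580-35773078, scored 102 and 66 in LM and 146 and 247 in eG1-1. Whether these sites lie in exons or introns is not known, since the gene table gives no exons.

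Distance from genes varied among them. The region nearest Fstl5, which encodes a secreted follistatin-like protein, chr3:76739065-76739703, lay 29373 bp from the gene's end and scored 65 and 73 in LM and 149 and 185 in eG1-1. The region nearest Fam161a, chr11:23124410-23124912, lay 78917 bp from its end and scored 95 and 129 in LM and 110 and 299 in eG1-1. The one nearest Arhgef10l, a guanine nucleotide exchange factor gene, chr4:140507121-140507741, lay 7054 bp away and scored 74 and 62 in LM and 181 and 154 in eG1-1. The Zfand6 region, chr7:84679132-84679867, scored 49 and 85 in LM and 122 and 166 in eG1-1. The Fgd4 region, chr16:16560016-16560562, scored 59 and 109 in LM and 130 and 144 in eG1-1. Fgd4 encodes a GDP-GTP exchange factor for Cdc42, and both this region and that of Zfand6 lay inside the gene over an annotated inner start, so off gene ends does not mean off promoters. Cyria (chr12:12278571-12279148) and Cnot4 (chr6:35027099-35027675), which encode a regulator of Rac1 and a ubiquitin ligase tied to mRNA decay, had the lowest LM scores of the 10, 21 and 19 for Cyria and 38 and 32 for Cnot4. Their eG1-1 scores were 109 and 164 for Cyria and 102 and 128 for Cnot4.

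Gained regions were mostly distal. At gene ends lay 168 of 1620, or 10.4% (8.98% to 11.9%), against 7.58% of early-G1-only regions (6.75% to 8.49%), 47.6% of mirror regions (43.7% to 51.4%), 49.0% of regions in all 6 lists (48.1% to 50.0%) and 21.4% of all regions. The gained share was thus below the mirror and all-list shares by more than these intervals. It stayed below both in 13 of 13 settings of the processing, where it ran between 9.18% and 19.2%, against 30.8% to 62.8% for mirror regions and 41.1% to 60.8% for regions of all lists. Against early-G1-only regions it was higher in 13 of 13 settings, where those ran between 7.29% and 9.93%, but the settings reuse the same 6 lists. Without LM replicate 1 the 2 shares were close, 9.18% against 8.52%. Regions taken from LM replicate 1 alone had 75 of 566 at gene ends (13.3%), those from LM replicate 2 alone 55 of 756 (7.28%) and those from both 38 of 298 (12.8%), so the value also differed between the LM lists. The share from LM replicate 2 alone was not above the 7.58% of early-G1-only regions. The 3 lists of replicate 1 alone gave 19.2% and those of replicate 2 alone 12.7%.

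**Figure D4:**
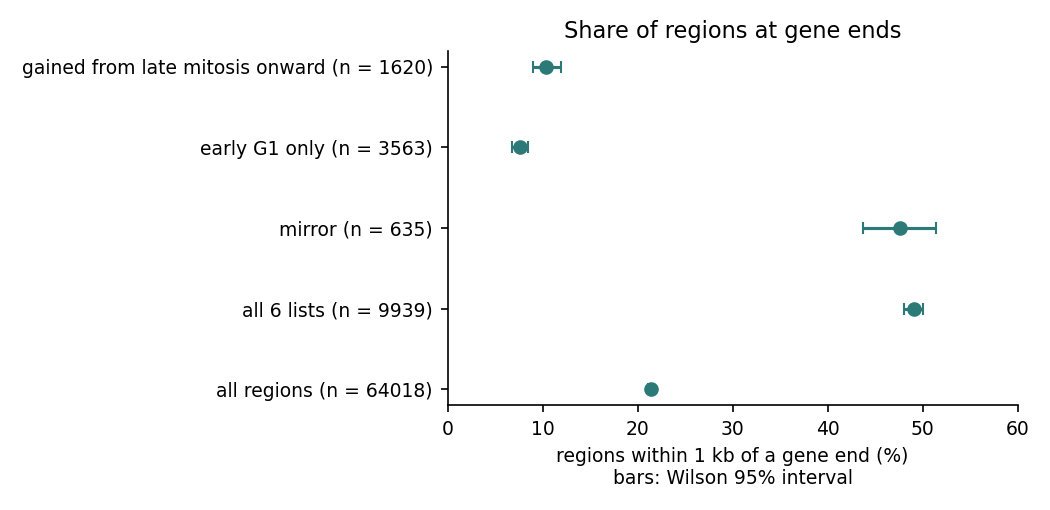
Share of regions centred within 1 kb of a protein-coding gene end (%), with Wilson 95% intervals, for gained, early-G1-only, mirror and all-list regions and for all regions. Gained regions had 10.4%, against 7.58% of early-G1-only regions, 47.6% of mirror regions (both mito lists, at least 1 LM list, no eG1-1 list) and 49.0% of regions in all 6 lists.

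Gained and early-G1-only regions had overlapping intervals for their shares inside genes and far from gene ends. Inside a protein-coding gene, gene ends included, lay 887 gained regions (54.8%), against 53.8% of early-G1-only regions and 54.1% of all regions. Inside a gene and not at a gene end lay 793 (49.0%), against 49.5% of early-G1-only, 26.9% of mirror, 25.3% of all-list and 41.2% of all regions. More than 50 kb from any gene end lay 397, or 24.5% (22.5% to 26.7%), against 25.1% of early-G1-only, 11.5% of mirror, 13.2% of all-list and 20.6% of all regions. Gained regions were a median 16940.5 bp from the nearest gene end, against 17660 bp for early-G1-only and 1188 bp for mirror regions. Their median width of 545 bp lay above the 449 bp of early-G1-only regions and below the 983 bp of regions in all 6 lists. A merged region grows with the number of peaks in it, so widths of sets held by more lists start higher.

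Within 1 kb of a region that a mito list held came 71 of them, or 4.38% (3.49% to 5.49%), against 5.98% of early-G1-only regions (5.25% to 6.81%). The gained share was 7.72% with both LM lists required, 8.13% in the lists of replicate 1 alone, 7.49% without eG1-1 replicate 1, 6.84% without eG1-1 replicate 2, and 2.42% at equal list length. The early-G1-only share was not recomputed under these settings. The median gap to the next such region was 15312.5 bp, against 13985 bp. Neighbouring gained regions were a median 778097 bp apart, with 91 gaps under 50 kb and 3 under 5 kb. The more numerous early-G1-only regions were a median 304498 bp apart, and a gap of this kind shortens as a set grows. Of gained regions off gene ends, 781 of 1452 had as their nearest gene one with a gene-end peak in both mito lists, or 53.8% (51.2% to 56.3%), against 54.2% for early-G1-only regions and 51.6% for all regions.

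RefSeq promoter windows of 300 bases, from 250 before to 50 after an annotated start, met 130 of the 1562 gained regions on chromosomes with windows. That is 8.32% (7.05% to 9.80%), against 4.83% of early-G1-only regions (4.16% to 5.60%), 36.3% of mirror regions, 46.9% of regions in all 6 lists and 16.3% of all regions. The 130 regions met 152 windows of 138 genes, of which 102 code for protein. Some of these windows overlap each other, so intervals over windows are too narrow. The table lacks some promoters, among them all of chromosome 18, so these counts are of listed windows.

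Promoters in gained regions held fewer CpG dinucleotides than those of mirror and all-list regions. CpG were counted in the 250 bases before the start. In 52 of the 152 windows, 34.2% (27.1% to 42.1%), there were 10 or more, against 33.2% of 187 early-G1-only windows, 89.2% of 286 mirror windows, 81.7% of 6115 windows of regions in all 6 lists and 38.3% of all 31396 windows. The median window held 7 CpG in gained regions, against 6 in early-G1-only, 21 in mirror, 17 in all-list regions and 6 over all windows. The gained share was below the mirror and all-list shares in 13 of 13 settings, over which it ran from 34.2% to 59.8%. Its place beside the 38.3% of all windows depended on the setting: it was 59.8% in the lists of replicate 1 alone, 52.3% in those of replicate 2 alone, 53.5% without mito replicate 1 and 51.8% without mito replicate 2. The other sets ran at 74.9% to 91.0% for mirror and 79.6% to 84.4% for all-list windows. Gained regions that both LM lists held had 18 of 37 windows with 10 or more CpG (48.6%). Lin37, Crk and Chaf1a in the printed set belong to the CpG-rich side, and Zfand6, Fgd4 and Gm46425 to the other.

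**Figure D5:**
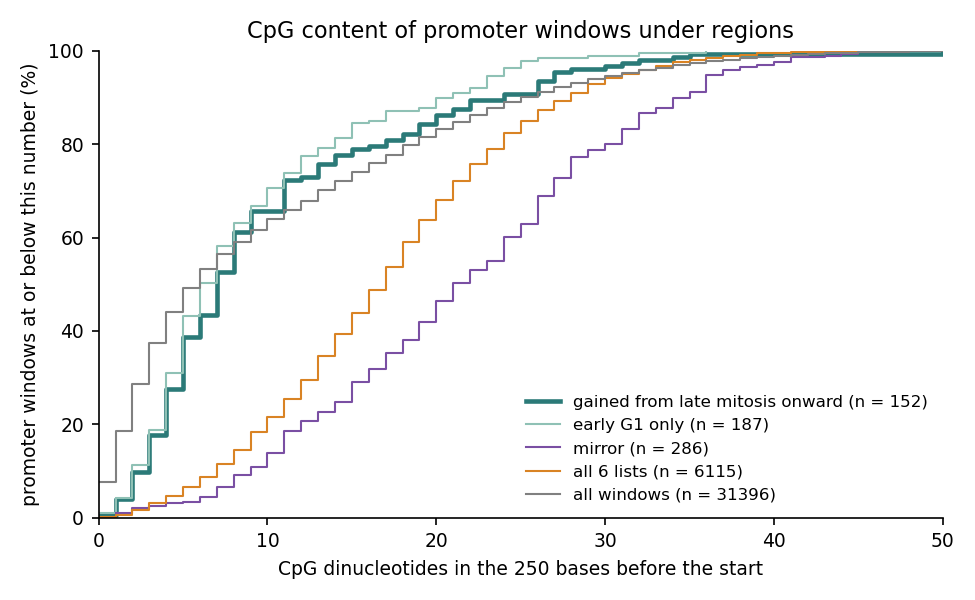
Cumulative share of RefSeq promoter windows (%) with at most the given number of CpG dinucleotides in the 250 bases before the start, 1 line each for windows under gained, early-G1-only, mirror and all-list regions and for all windows. The gained line has its median at 7 CpG, against 6 for early-G1-only, 21 for mirror and 17 for all-list windows.

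The 16 motifs searched, on both strands of the 250 bases before each start, were CGGAAG (ETS factors), CCAAT (NFY), GGGCGG (GC box, Sp and Klf factors), CACGTG (E-box), TGACGT (CRE), TTCCCGC (E2F), TTTGAA and TTCGAA (forms of the cell cycle homology region), TGANTCA (AP-1), ATGCAAA (octamer), ACAAAG (SOX), AAGGTCA (ESRRB), GGAATG (TEAD), AAGATGG (YY1), GCGCATG (NRF1) and TATAAA (the core promoter box of that name). Letters of different motifs may overlap. CCAAT stood in 56 of 152 gained windows, 36.8% (29.6% to 44.7%), against 36.4% of early-G1-only, 25.5% of mirror, 46.0% of all-list and 33.7% of all windows. GGGCGG stood in 46.1% of gained windows (38.3% to 54.0%), against 36.9% of early-G1-only, 59.4% of mirror, 64.3% of all-list and 33.0% of all windows. The gained interval for GGGCGG lay above the share of all windows and below that of all-list windows. CGGAAG stood in 18.4% of gained windows (13.1% to 25.3%), against 11.8% of early-G1-only, 30.8% of mirror, 29.7% of all-list and 13.7% of all windows.

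GGAATG and ACAAAG were more frequent in gained than in mirror windows. Overlapping windows hold the same letters, so the intervals do not settle this difference. GGAATG was found in 29 of 152 gained windows, 19.1% (13.6% to 26.1%), against 15.5% of early-G1-only, 8.04% of mirror (5.42% to 11.8%), 10.1% of all-list and 12.5% of all windows. ACAAAG was found in 18.4% of gained windows (13.1% to 25.3%), against 19.3% of early-G1-only, 8.39% of mirror, 10.7% of all-list and 16.3% of all windows. GCGCATG was found in 2 gained windows, 1.32% (0.362% to 4.67%), against 8.04% of mirror, 6.97% of all-list and 3.22% of all windows. TTCCCGC was found in 12 gained windows, 7.89% (4.57% to 13.3%), against 3.74% of early-G1-only, 9.09% of mirror, 7.51% of all-list and 3.83% of all windows. CACGTG was found in 4 gained windows (2.63%), against 6.02% of all windows, and the Chaf1a promoter is one of them. TTCGAA was found in none of the 152 gained windows, which allows a share of up to 2.46% by the Wilson interval, against 1.30% of all windows. The other 7 motifs stood in 2.63% (ATGCAAA, octamer) to 13.2% (TTTGAA) of gained windows, against 4.19% and 15.6% of all windows for those letters. Base composition differs between the sets, with a median of 54.8% G and C in gained, 53.2% in early-G1-only, 65.4% in mirror and 60.4% in all-list windows, and its part in the motif shares was not tested.

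Of 20665 protein-coding genes, 1329 had a gained region inside them or within 10 kb of either end, which is 6.43%. The number was 245 with both LM lists required, 2355 and 2182 in the lists of replicates 1 and 2 alone, and 2918 with a flank of 50 kb. Leaving out LM replicate 1 gave 869 genes and leaving out LM replicate 2 gave 734. Without mito replicate 2 there were 2994, and 2612 when eG1-1 replicate 1 was dropped. Among the 356 measured genes of 15 lists (pluripotency, signalling, cell cycle, chromatin, metabolism and other cell types), 35 genes (9.83%) had one, with 37 regions between them. Each list share that follows rests on few genes. Genes with a gained region were long, with a median of 49.68 kb against 17.491 kb for all protein-coding genes. The part of gene length in these counts was not tested. A gene-end peak in both mito lists was found at 698 of the 1329 genes, or 52.5% (49.8% to 55.2%), against 44.6% of all protein-coding genes, and at 20 of the 35.

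Of the naive pluripotency genes 2 of 29 had a gained region, or 6.90%, near the 6.43% of all protein-coding genes. Nr5a2, an orphan nuclear receptor that acts upstream of Pou5f1, had 2 regions, both absent from LM replicate 1. The one at chr1:136856181-136856629 scored 45 in LM replicate 2 and 56 and 153 in eG1-1, and the one at chr1:136939641-136940442 scored 40 in LM replicate 2 and 32 and 49 in eG1-1. Zfp42, known as Rex1 and used as a reporter of the naive state, had one at chr8:43299478-43300209 that scored 20 in LM replicate 1 and 34 and 41 in eG1-1. The Zfp42 gene also had a gene-end peak in all 6 lists, so its gained region is a second site of that gene.

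In the LIF and STAT3 list 2 of 14 genes had a gained region, or 14.3%, against 6.43% of all protein-coding genes. Lif itself, the cytokine, had one at chr11:4270908-4271487 with 25 in LM replicate 1 and 52 and 66 in eG1-1, and Gab1, a docking adaptor for receptor signalling, had one with 38 in LM replicate 2 and 34 and 76 in eG1-1. In the FGF and ERK list 3 of 22 did, or 13.6%. Sos1, the exchange factor that loads Ras with GTP, had one with 32 in LM replicate 2 and 88 and 132 in eG1-1. Spred2, an inhibitor of the same step, had one with 31 in LM replicate 2 and 35 and 36 in eG1-1. A region 4185 bp outside Myc, chr15:61994547-61995064, scored 18 in LM replicate 2 and 37 and 50 in eG1-1, among the lowest LM scores of the set.

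In the Wnt list 3 of 26 genes had a gained region, or 11.5%, against 6.43% of all protein-coding genes. Gsk3b encodes the kinase that CHIR99021 inhibits, and its region was one of the few here in both LM lists, with 33 and 32 in LM and 27 and 32 in eG1-1. Tcf7l1, a repressor of Wnt targets in stem cells, had 2 regions. One, 3001 bp outside the gene, scored 58 in LM replicate 1 and 32 and 70 in eG1-1. The other, inside the gene, scored 52 in LM replicate 2 and 65 and 47 in eG1-1. A region inside Pdgfrb, 185 bp from a gene end, and 8901 bp outside Cdx1 scored 47 in LM replicate 1 and 35 and 26 in eG1-1. It is counted for both genes. In the Nodal and BMP list 4 of 24 did, or 16.7%. Among these were the signal transducers Smad1 (62 in LM replicate 2, 32 and 63 in eG1-1) and Smad5 (26 in LM replicate 2, 83 and 54 in eG1-1) and the receptor gene Bmpr1a (20 in LM replicate 2, 22 and 35 in eG1-1).

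Cell cycle genes were counted by phase. In the G1 and S phase list 4 of 30 genes had a gained region, or 13.3%, and in the G2 and M phase list 2 of 30, or 6.67%. The share was 6.43% over all protein-coding genes and 9.83% over the genes of the 15 lists. Counts this small do not separate the phases. Both subunit genes of CAF-1 were among those of the G1 and S phase list. Besides Chaf1a, described above with peaks in both LM lists, Chaf1b had a region inside the gene at chr16:93890869-93891389, with 47 in LM replicate 1 and 60 and 95 in eG1-1. The helicase subunit gene Mcm6 had one at chr1:128344045-128344674 with 80 in LM replicate 2 and 79 and 85 in eG1-1. A region 6168 bp outside Mcm5, another subunit gene, lay nearer to Hmox1 and scored 29 in LM replicate 1 and 18 and 26 in eG1-1. The G2 and M phase genes were Kif20a, a kinesin of cytokinesis, and Cdc25c, a phosphatase that activates CDK1. The Kif20a region lay 4674 bp outside that gene, in the neighbouring gene Cdc23 (26 in LM replicate 1, 52 and 60 in eG1-1). The Cdc25c region lay 8016 bp outside that gene and nearer to Gfra3 (39 in LM replicate 2, 39 and 101 in eG1-1).

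Among the chromatin regulators 4 of 29 genes had a gained region, or 13.8%, and in the list of cohesin, condensin and other architectural genes 0 of 23. Over all protein-coding genes the share was 6.43%. Rnf2, the ubiquitin ligase of Polycomb complex 1, had one over its promoter window, chr1:151500716-151501494, with 78 in LM replicate 1 and 36 and 93 in eG1-1. Smarca4, the ATPase of the BAF remodelling complex, had one 2316 bp outside the gene with 45 in LM replicate 2 and 35 and 37 in eG1-1, and Smarcc1, a core subunit of the same complex, one inside it with 26 in LM replicate 2 and 19 and 75 in eG1-1. Kmt2b was counted through the Lin37 region, 8812 bp away. Among formative and germ layer genes 3 of 26 had one, or 11.5%. Dnmt3a, a de novo DNA methyltransferase, scored 28 in LM replicate 2 and 81 and 123 in eG1-1, Otx2 had a region 6424 bp outside the gene with 21 in LM replicate 1 and 18 and 66 in eG1-1, and Pax6 scored 53 in LM replicate 2 and 42 and 50 in eG1-1.

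The remaining lists had shares of 4.55% to 8.70%. In the early response list 1 of 20 genes had a gained region, or 5.0%. This was Jund, a subunit gene of AP-1. Its region, 16 bp outside the gene (chr8:70700633-70700978), scored 24 in LM replicate 2 and 80 and 91 in eG1-1. Jund also had a gene-end peak in both mito lists, so this region is a second site of that gene. In the cytoskeleton and adhesion list 2 of 29 did, or 6.90%. In the solute and metabolism list 2 of 23 did, or 8.70%. Ldha, which makes lactate from pyruvate, had a region 2879 bp outside the gene in both LM lists, with 49 and 28 in LM and 82 and 61 in eG1-1. Slc3a2, a subunit of amino acid transporters, had one 4371 bp outside the gene, with 44 in LM replicate 2 and 48 and 60 in eG1-1. Of genes that mark other cell types, 2 of 23 did, or 8.70%. Neurod1, a neuronal regulator, had a region over its promoter window in both LM lists, with 19 and 55 in LM and 20 and 19 in eG1-1. Pdgfrb had the one named above. In the trophectoderm and endoderm list 1 of 22 did, or 4.55%, which was Sparc, with 26 in LM replicate 1 and 26 and 75 in eG1-1.

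The 5 genes named here are Tenm3, which had the most gained regions, and 4 of the 8 genes with 3, taken by symbol. At least 2 were found at 72 genes and at least 3 at 9, and these were long, with median lengths of 127.435 and 303.55 kb. Tenm3, a teneurin adhesion gene of 1297.16 kb, had 4 among 48 regions of any kind, with single LM scores of 25 to 47 and eG1-1 scores of 34 to 67 and 49 to 77. Epha4, an ephrin receptor gene of 147.926 kb, had 3 among 13 regions, the strongest at chr1:77373929-77374454 with 91 in LM replicate 1 and 219 and 111 in eG1-1. Fbxw7, a ubiquitin ligase subunit that targets cyclin E and Myc, had 3 among 8 regions in 164.209 kb. Of the Fbxw7 regions, the one with the highest LM score, chr3:84875323-84875692, scored 77 in LM replicate 2 and 51 and 80 in eG1-1. Asic2, an ion channel gene, had 3 among 15 regions, and Btbd11 3 among 22, of which one, chr10:85591808-85592473, was in both LM lists with 15 and 37 in LM and 50 and 74 in eG1-1.

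Along the genome, gained regions made up between 2.19% of the regions of chromosome 5 and 3.00% of those of chromosome 14. In bins of 2 Mb, 418 of 1217 held none, and the most in a bin was 7, found in 3 bins. One stretch was picked out after its values were seen. It spans 1.84 Mb at chr13:65950409-67792515, a cluster of zinc finger genes, and held 7 gained regions among 89 (7.87%), against 2.51% of all regions of chromosome 13. The stretch was cut at its first and last gained regions, which raises this share. The same 89 regions included 9 early-G1-only ones, while early-G1-only regions made up 6.32% of all regions of chromosome 13. The early-G1-only share was thus also higher in the stretch than on the chromosome. Mirror regions, 635 of all 64018, were too rare for the 0 among these 89 to carry weight. Gm46425 at the edge of the stretch scored 77 and 26 in LM and 107 and 185 in eG1-1. The region at Zfp456, chr13:67375570-67375900, scored 26 in LM replicate 2 and 86 and 152 in eG1-1, and the region nearest Zfp729a, chr13:67652199-67653001, scored 40 in LM replicate 2 and 107 and 196 in eG1-1. The region 8998 bp from LOC115486435, chr13:66588377-66589406, scored 45 in LM replicate 2 and 111 and 190 in eG1-1, and the region nearest Zfp493 scored 40 in LM replicate 2 and 63 and 92 in eG1-1. Zfp874a, by contrast, scored 28 in LM replicate 1 and only 39 and 35 in eG1-1. The genes of this cluster are close copies of each other, and whether reads were shared between copies was not tested.

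The highest score among gained regions was also picked out after the values were seen. The region chr16:35981473-35982010, over a promoter window of the gene Gm15564, had no peak in either mito list or in LM replicate 1, and scored 2980 in LM replicate 2 and 1446 and 845 in eG1-1. The next LM replicate 2 score was 723, in a region near BC052040, chr2:115161449-115161798, which scored 59 and 355 in eG1-1. Both LM replicate 2 scores stood above the third quartile of the members in that list, which was 48.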

How the data were processed

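ATAC-seq of 6 samples, 2 each of mito, LM and eG1-1, was deposited as 1 peak list per sample with 5 columns. The last column holds the authors' score for each peak, a whole number and its scaling is not stated. Per the submitters' processing notes, the work used MACS2 2.2.4, deepTools 3.5.1, STAR 2.7.0e, SAMtools 1.10, bedtools and Picard, on builds mm10 and GRCm38. Roles and settings are not stated there. Peaks were called per sample, per the peak names in the deposited lists. Read ends and their Tn5 shift, the calling threshold and the depth are not given. A threshold on fewer reads misses more sites, so absence from a list depends on depth.

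Merged regions, shares with Wilson 95% intervals and medians were computed with Python 3.11.15, pandas 2.3.3 and SciPy 1.17.1, and the merging and the rule were tested on simulated regions. Gene positions and promoters came from RefSeq tables on GRCm38.p6, which give both ends of a gene without exons. Sequences of regions outside promoter windows were not analysed here. The text names the 15 gene-end members and the 10 members off gene ends in both LM lists with the highest lower eG1-1 percentile, members at genes of the 15 lists, and the 5 genes with most members, ties by symbol. A few members at genes of these lists are not reported here. The members and lists were chosen with earlier results of these data known. Alternatives were a score of at least 50, equal list length, merging within 200 bp, both LM lists, single runs, other windows and leaving out each list.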

Additional observations from a re-analysis of the deposited data

How the results depend on the processing

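The main limits are the unknown depth, 2 lists a group, and a replicate number that is also a sequencing run. The number of gained regions, 1620, was 784 with scores of at least 50, 298 with both LM lists required, 2707 in the lists of replicate 1 alone, 2782 in those of replicate 2 alone, and 864 to 3762 when each list was left out, lowest without LM replicate 2 and highest without mito replicate 2. The number of mirror regions, 635, was 1748 at equal list length, 128 with both LM lists, 3086 in the lists of replicate 1 alone, and 233 to 2834 when each list was left out, lowest without LM replicate 1 and highest without eG1-1 replicate 2. The share of gained regions at gene ends, 10.4%, was 13.8% with scores of at least 50, 12.8% with both LM lists, 19.2% and 12.7% in the lists of replicates 1 and 2 alone, 7.59% and 13.9% with windows of 500 bp and of double the standard width, and 9.18% to 15.3% when each list was left out. Gained regions outnumbered mirror regions in 10 of 13 settings. Merging within 200 bp gave 1653 gained regions. The cause of these shifts was not tested. For the other values, 30 recomputed ones stayed within 1.5 times for counts or within counting error for shares and medians, and 46 did not. The CpG share and the overlap with promoter windows were added to the alternatives after the data were seen. No paired analysis was possible because the results come from no test; the counts within each sequencing run are those of replicates 1 and 2 alone.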

Other observations

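On chromosome X, which the rule leaves out, 20 of 1271 regions met the same conditions, or 1.57%, with 13 mirror and 68 early-G1-only regions. Among 1005 microRNA hairpin genes, 1 overlapped a gained region. This was Mir326, inside the arrestin gene Arrb1, at chr7:99551781-99552288, with a score of 19 in LM replicate 1, no peak in LM replicate 2, and 47 and 54 in eG1-1.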
